A study of Homo sapiens with 4 samples.

Results

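The genes described here encode the receptors of interleukin (IL)-18, IL-12 and IL-21, together with STAT4 and MYD88, which carry the IL-12 and IL-18 signals inside the cell. They were picked by name, with earlier results of these data known: IL18R1, IL18RAP, IL12RB1, IL12RB2, IL21R, STAT4 and MYD88. All 7 were found by symbol and matched by Ensembl identifier among the 61860 genes of the count table, and all 7 passed the filter on low counts. The RNA was that of NK-92 cells, an established line of human natural killer (NK) origin that grows in medium with 20 ng/ml IL-2. Wild-type (WT) cells were set against ΔOGT-ISS cells, in which CRISPR-Cas9 deleted an intronic splicing silencer of OGT, the gene of the enzyme that adds the sugar O-GlcNAc to intracellular proteins. The sample labels give IL-2 either 48 h or 24 h before RNA extraction, to both lines, although the titles name IL-2 only for the 24 h libraries. With 2 lines and 2 times there were 4 libraries, 1 for each combination. The labels do not say whether the edited line is 1 clone, and only that line was compared with WT.

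IL-18, IL-12 and IL-21 act on NK cells alongside IL-2. IL-18 binds IL18R1, and the accessory chain IL18RAP completes the receptor, whose intracellular TIR domains engage the adaptor MYD88 and, through IRAK kinases and TRAF6, NF-κB. IL-12 binds the pair IL12RB1 and IL12RB2, which act through TYK2 and JAK2 on the transcription factor STAT4. IL-21 binds IL21R together with the common gamma chain IL2RG, with JAK1 and JAK3, and acts mainly through STAT3. IL-12 and IL-18 given together are known for a strong IFN-γ response of NK cells.

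IL18R1 and IL18RAP, both on chromosome 2, were the 2 receptor genes with the largest line differences. The bases just before their start sites are shown because the counts of these neighbouring genes moved together across the 4 libraries. The sequences are from RefSeq (GRCh38.p14), plus strand, 5′ to 3′, 250 bases ending 1 base before the first listed start, at chr2:102355546-102355795 for IL18R1 and chr2:102418371-102418620 for IL18RAP. Neither window overlaps an exon of GENCODE release 29, and the IL18R1 window lies inside the annotated span of IL18R1, whose GENCODE start is further upstream. Capitals mark the only match to 4 searched motifs in these windows, an ISRE core.
IL18R1: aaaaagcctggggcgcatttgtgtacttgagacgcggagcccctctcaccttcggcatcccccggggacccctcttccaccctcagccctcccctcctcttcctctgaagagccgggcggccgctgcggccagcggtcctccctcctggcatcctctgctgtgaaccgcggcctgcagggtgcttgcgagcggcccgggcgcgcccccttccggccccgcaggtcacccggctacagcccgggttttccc
IL18RAP: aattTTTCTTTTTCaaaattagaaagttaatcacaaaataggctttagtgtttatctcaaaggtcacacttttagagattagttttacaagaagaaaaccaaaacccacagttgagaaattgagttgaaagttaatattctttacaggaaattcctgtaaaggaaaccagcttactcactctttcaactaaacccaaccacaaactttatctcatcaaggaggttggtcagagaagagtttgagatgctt

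The 2 windows differ in base composition, with 70.4% G and C before IL18R1 and 32.4% before IL18RAP. The motifs, searched on both strands, were STAT (TTCNNNGAA), AP-1 (TGANTCA), T-box (TCACACC) and ISRE core (GAAA, any 2 bases, GAAA). They occur in 6.57%, 6.57%, 2.76% and 3.02% of all 35116 RefSeq windows of that length. The IL18RAP match starts 246 bases before the start site. A second IL18R1 window, not printed because it overlaps an exon, holds a T-box match 29 bases and an ISRE core match 18 bases before its start site. Of the 12 windows listed for the 7 genes, 1, 1, 1 and 3 hold them, in that order. The STAT and ISRE core matches before the listed MYD88 start overlap each other, and their window overlaps an annotated MYD88 exon.

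Total counts were 10889986 (WT) and 11305599 (ΔOGT-ISS) at 48 h and 24809269 and 28576566 at 24 h, so values at 24 h rest on more reads. The NK markers fixed for checking the cell type were all counted, with a summed level of 2826.5 to 4832 CPM (counts scaled to the TMM-normalized library total) per library. Of these, CD7 had only 7 counts in each 48 h library, against 251 (WT) and 331 (ΔOGT-ISS) at 24 h. Between the lines 0 of the 12 passed, where 0.463% of all genes tested did, so low a share that 0 of 12 tells little. Their line values were negative for 10 and positive for 2 (median log2 -0.24). Markers of other cell types were mixed. Of the 10 T cell markers, CD3E (2134 to 9158 counts), CD247 (1114 to 4147), TRBC2 (450 to 2522) and TRAC (245 to 697) were counted in every library, while CD3D, CD4, CD8A, CD8B and CD5 had at most 14 counts and CD3G at most 49. Of the 8 myeloid markers, S100A9 (1127 to 8234 counts), S100A8 (22 to 311), ITGAM (86 to 201) and CSF1R (42 to 138) were counted in every library, while CD14, LYZ, FCN1 and CST3 had at most 5. Of the B cell list, PAX5 had 703 to 2342 counts in every library, CD79A reached 44, and MS4A1 and CD79B had at most 4.

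**Figure D1:**
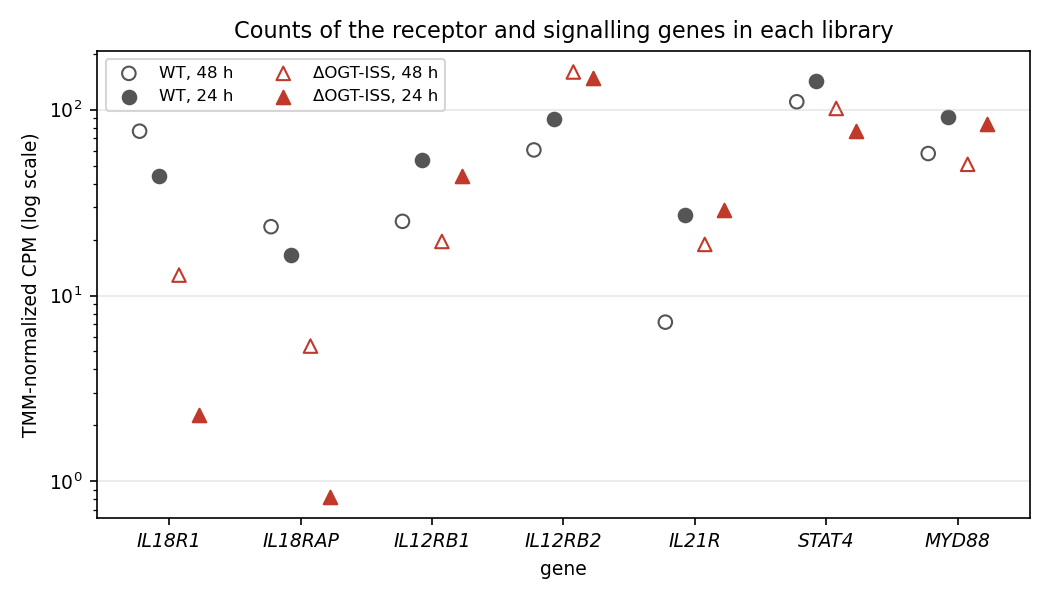
TMM-normalized CPM (log axis) of the 7 genes in each of the 4 libraries; circles are WT and triangles ΔOGT-ISS, open at 48 h and filled at 24 h. IL18R1 and IL18RAP are the genes whose ΔOGT-ISS points lie far below both WT points, and IL12RB2 the one whose ΔOGT-ISS points lie above both WT points.

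The ligand-binding subunit of the IL-18 receptor was the gene that fell in the edited line. IL18R1 (ENSG00000115604, chromosome 2, 102311529 to 102398775, plus strand, GRCh38) stood at 76.6 CPM in the WT and 12.9 CPM in the ΔOGT-ISS library at 48 h, and at 44.2 and 2.28 CPM at 24 h. These rest on 810, 147, 1089 and 66 counts. Both ΔOGT-ISS libraries lay below both WT libraries, and the lowest of the 4 was ΔOGT-ISS at 24 h. The 48 h ratio of ΔOGT-ISS to WT was 0.168 (95% counting interval 0.140 to 0.201), and the 24 h ratio 0.0515 (0.0395 to 0.0660). These intervals cover counting error only, and each ratio compares 2 single libraries. Over both times IL18R1 fell by 3.38 on the log2 scale (SE 0.38, edgeR adjusted p = 0.0159), which is 10.4-fold. Of the 17492 genes tested, 31 had a lower log2 value. The call ended with limma on log2 FPKM (-2.55, adjusted p = 0.158 with a pseudocount of 1) and without the time term (-3.01). The call also ended with 1 library left out, in fits likewise without the time term, where the value ran from -4.73 to -2.27. All had the same sign. In bulk RNA, fewer cells with the transcript and less transcript per cell cannot be told apart.

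The accessory chain gene gave values of nearly the same size but did not pass the test. IL18RAP (ENSG00000115607, chromosome 2, 102418689 to 102452565, plus strand) had 23.5 CPM in the WT and 5.35 CPM in the ΔOGT-ISS library at 48 h, from 248 and 61 counts. At 24 h it had 16.6 and 0.828 CPM, from 409 and 24 counts. The 2 ΔOGT-ISS libraries again lay below both WT libraries. The line ratios were 0.228 (0.169 to 0.303) and 0.0498 (0.0316 to 0.0752). The log2 difference was -3.15 (SE 0.50, edgeR adjusted p = 0.0514), just outside the threshold of 0.05. With DESeq2 size factors, upper-quartile factors, the DESeq2 test, no count filter or thinned 24 h libraries the adjusted p was 0.0206, 0.0463, 7.79e-07, 9.10e-19 and 0.0197, and above 0.05 under the other 9 alternatives, so the call for IL18RAP turned on the setting. Its value was -2.14 with limma on log2(FPKM + 1). With 1 library left out, in fits without the time term, it ran from -4.59 (without the ΔOGT-ISS 48 h library) to -1.95 (without the ΔOGT-ISS 24 h library).

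One gene of 7 (IL18R1) was thus called between the lines, where edgeR called 0.463% of all genes tested, 0.149% higher and 0.314% lower in ΔOGT-ISS. At an unadjusted p of 0.05 there were 4 (IL18R1, IL18RAP, IL12RB2 and STAT4), against 1589 of all 17492 genes. The median log2 line difference of the 7 genes was -0.32, against 0.02 over all genes tested. Because the 7 genes were chosen with earlier results of these data known, these numbers are a description only.

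The line ratios of both IL-18 receptor genes were further from 1 at 24 h than at 48 h, and their counting intervals at the 2 times did not overlap. This difference between the times has no replicate and was not tested, since the model's 1 residual degree of freedom is that very difference. The summed CPM of the 8 myeloid markers was also lowest in ΔOGT-ISS at 24 h. It was 827 and 612 at 48 h and 315 and 47.5 at 24 h, WT first, with 779 and 584, then 290 and 38.9, from S100A9. CSF1R, of the same list, had a line ratio further from 1 at 48 h (0.389) than at 24 h (0.628). Of the 12 NK markers, GZMB (327 CPM), GNLY (49.0 CPM) and KLRD1 (72.9 CPM, with 75.7 in WT at 24 h) were also lowest in ΔOGT-ISS at 24 h. The other NK markers were not, among them EOMES, with 319 CPM in ΔOGT-ISS at 24 h and 186 CPM in ΔOGT-ISS at 48 h. The sum of the 12 NK markers was instead lowest in ΔOGT-ISS at 48 h (2826.5). Of the 4 tested myeloid markers 0 passed between the lines and 2 passed as lower at 24 h, where 0.463% and 10.9% of all genes tested did. The part of the myeloid markers in the IL-18 receptor values was not tested.

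**Figure D2:**
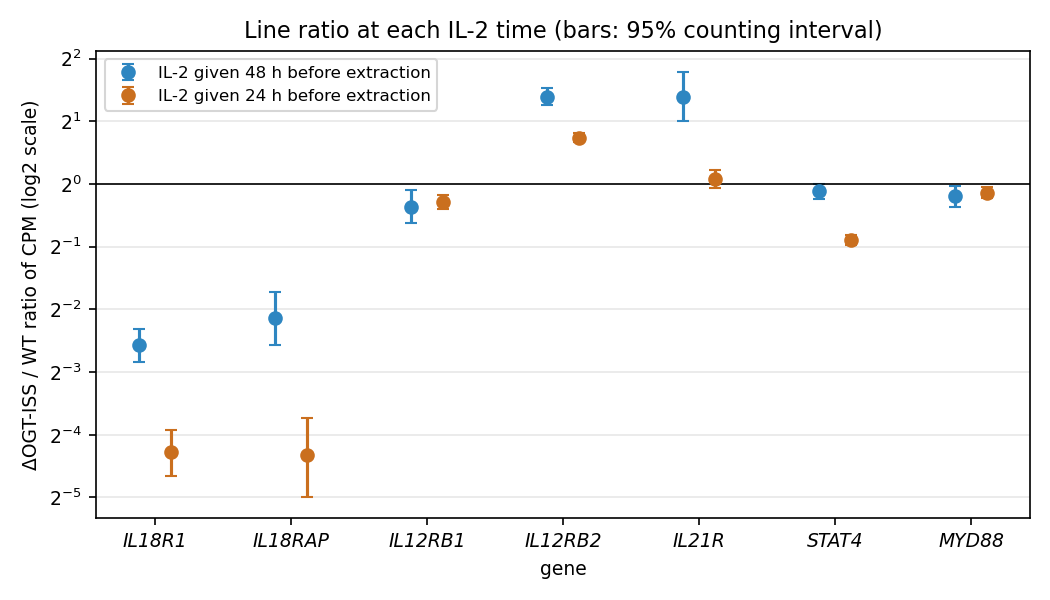
Ratio of CPM in ΔOGT-ISS to WT (log2 axis) for each gene at 48 h (blue) and 24 h (orange), with exact 95% counting intervals. IL18R1 runs from 0.168 to 0.0515 and IL18RAP from 0.228 to 0.0498, while IL12RB2 lies above 1 at both times and IL21R above 1 at 48 h.

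IL18RAP was also the gene most like IL18R1 in its course over the libraries. Likeness was the root mean square difference of log2 CPM over the 4 libraries after centring each gene, among 9657 genes with a symbol and a mean of at least 5 CPM. It was 0.168 log2 units between IL18R1 and IL18RAP, while IL18R1 itself varied by 1.92. The next gene after IL18RAP was ZNF423, a zinc finger transcription factor, at 0.486, and for IL18RAP it was DAPK2, a calmodulin-regulated kinase, at 0.469. Per length, in the deposited FPKM, IL18R1 stood above IL18RAP in every library, at 17.9 against 9.90 (WT) and 3.14 against 2.35 (ΔOGT-ISS) at 48 h. At 24 h the FPKM were 10.6 against 7.17 and 0.557 against 0.365. The FPKM ratio of the subunits lay between 1.34 and 1.81 in the 4 libraries.

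The 2 genes lie 19913 bases apart in the IL-1 receptor gene cluster. Of the 9 genes listed for the cluster and its flanks, 5 were tested, IL18R1 and IL18RAP among them. All 5 had negative line values, and 2 passed as lower, where 0.314% of all genes tested did. These were IL18R1 and MAP4K4, a kinase gene on the flank of the cluster. MAP4K4 had 155 and 53.5 CPM at 48 h and 137 and 52.5 at 24 h, WT first, and fell by 1.46 on the log2 scale (SE 0.16, edgeR adjusted p = 0.0142). IL1R1, the IL-1 receptor, had 61 and 27 counts at 48 h and 94 and 32 at 24 h (log2 -1.54, SE 0.48, edgeR adjusted p = 0.314). IL1RL1, the IL-33 receptor, overlaps the annotated span of IL18R1 over 40509 bases on the same strand. It had at most 18 counts in any library. Beyond IL18RAP, MFSD9 stood at -0.04 (SE 0.19, edgeR adjusted p = 0.986).

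Most genes further out had values nearer 0. Within 5 Mb on either side, 34 of the 38 other protein-coding genes tested lay between -1 and 1, 3 lay at -1 or under, 1 at 1 or over, and MAP4K4 was the single call. Their median line difference was 0.11, and that of 816 tested genes of chromosome 2 was 0.05. Around the other 5 genes, the 5 Mb medians lay between -0.01 and 0.11. The 3 transcripts annotated inside the IL18RAP span on the same strand had low counts: MIR4772 had 7 and 2 at 48 h and 6 and 0 at 24 h, WT first, AC007278.1 had 26 and 2 counts at 48 h and 22 and 0 at 24 h, and AC007278.2 had 17 and 3, then 16 and 1. MIR4772 was under the count filter, and the other two did not pass the test (edgeR adjusted p = 0.247 and 0.459).

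**Figure D3:**
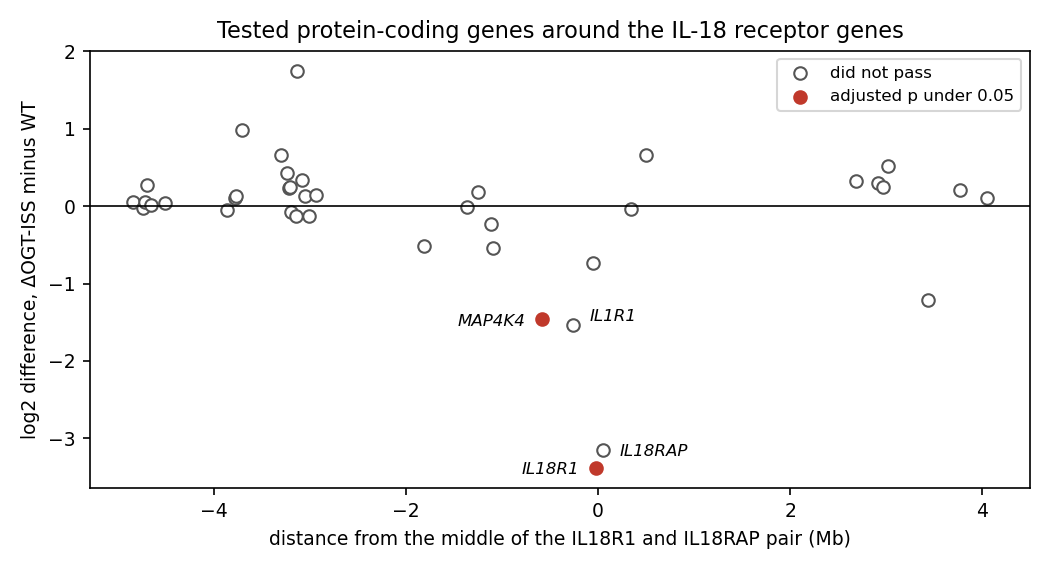
Log2 line difference (ΔOGT-ISS minus WT) of the tested protein-coding genes within 5 Mb of IL18R1 and IL18RAP, by distance from the middle of the pair in Mb; red points passed the edgeR test. IL18R1, IL18RAP, MAP4K4 and IL1R1 lie lowest, near distance 0, and most others lie near 0 on the vertical axis.

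The signal-specific chain of the IL-12 receptor went the other way, short of the threshold. IL12RB2 (ENSG00000081985, chromosome 1, 67307364 to 67397090, plus strand) had 60.7 CPM in the WT and 160 CPM in the ΔOGT-ISS library at 48 h, from 642 and 1821 counts. At 24 h it had 88.6 and 148 CPM, from 2182 and 4293 counts. Both ΔOGT-ISS libraries lay above both WT libraries. The ratios were 2.63 (2.40 to 2.88) and 1.67 (1.59 to 1.76). The log2 difference was 1.06 (SE 0.20, edgeR adjusted p = 0.0790). The adjusted p was 0.0486 with DESeq2 size factors, 8.75e-04 with the DESeq2 test and 2.40e-04 with no count filter, and above 0.05 under the other alternatives, except that it passed in 8 of 10 further random draws of the thinning of the 24 h libraries.

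IL12RB1, the chain shared with the IL-23 receptor, did not pass between the lines. IL12RB1 (ENSG00000096996, chromosome 19, 18058995 to 18098944, minus strand) had 25.1 and 19.5 CPM at 48 h and 53.6 and 43.8 at 24 h, WT first. The time set the order here, with both 24 h libraries above both 48 h libraries. The log2 line difference was -0.32 (SE 0.18, edgeR adjusted p = 0.701), with line ratios of 0.779 at 48 h and 0.817 at 24 h. With 1 library left out the value ran from -1.07 to 0.38. Its sign turned without the ΔOGT-ISS 48 h (0.15) or WT 24 h library (0.38). Those fits had no time term, so they mix the line difference with the difference between the times. Over 1152 bases the annotated span of IL12RB1 overlaps MAST3 on the opposite strand. The sources used here do not give the strand setting of the counting, so reads there may belong to either gene. The same holds for STAT4 with STAT4-AS1 (at most 56 counts) and IL21R with IL21R-AS1 (at most 1 count at 48 h, and 24 and 25 at 24 h).

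The balance of the 2 chains per length therefore differed between libraries. The FPKM ratio of IL12RB2 to IL12RB1 was 1.21 and 4.07 at 48 h and 0.824 and 1.68 at 24 h, WT first. At each time the ratio was higher in ΔOGT-ISS. These are ratios of single libraries, with no test.

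STAT4 was the most abundant of the 7 genes per length in 3 of 4 libraries. STAT4 (ENSG00000138378, chromosome 2, 191029576 to 191151596, minus strand) had 110 CPM in the WT and 102 CPM in the ΔOGT-ISS library at 48 h and 143 and 76.7 at 24 h. The lowest library was ΔOGT-ISS at 24 h and the highest WT at 24 h. The line ratios were 0.921 (0.848 to 0.9995) and, at 24 h, 0.537 (0.509 to 0.566), and the log2 difference -0.51 (SE 0.21, edgeR adjusted p = 0.509). The kinases upstream did not pass between the lines: JAK2 had a log2 value of 0.99 (SE 0.31, edgeR adjusted p = 0.316), with ratios of 3.09 at 48 h and 1.36 at 24 h, and TYK2 0.07 (SE 0.17).

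IL21R (ENSG00000103522, chromosome 16, 27402162 to 27452042, plus strand) had unlike line ratios at the 2 times. At 48 h it had 7.19 CPM in WT, from 76 counts, and 18.8 CPM in ΔOGT-ISS, a ratio of 2.62 (2.01 to 3.45). At 24 h it had 27.2 and 28.8 CPM, a ratio of 1.06 (0.954 to 1.17). WT at 48 h was the low library and the other 3 lay closer together. The log2 line difference was 0.67 (SE 0.32, edgeR adjusted p = 0.612). It ran from -0.23 without the WT 48 h library to 1.76 without the WT 24 h library. Those fits had no time term and mix in the difference between the times. Its partners JAK1, JAK3 and IL2RG stood at -0.01, 0.00 and -0.25, and STAT3 at -0.22, with edgeR adjusted p of 0.767 or more.

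MYD88 (ENSG00000172936, chromosome 3, 38138478 to 38143022, plus strand) had the smallest line difference of the 7. It had 58.1 and 50.8 CPM at 48 h and 91.8 and 83.5 at 24 h, WT first, with ratios of 0.875 (0.780 to 0.982) and 0.910 (0.859 to 0.964). The log2 difference was -0.16 (SE 0.16, edgeR adjusted p = 0.896). It ran from -0.62 without the ΔOGT-ISS 24 h library to 0.24 without the WT 24 h library, in fits without the time term, which mix in the difference between the times. The adaptor was counted at 19.2 to 34.2 FPKM in all 4 libraries, including those where IL18R1 stood at 3.14 and 0.557 FPKM.

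In FPKM the order of the 7 genes differed between the libraries, also within WT. In WT at 48 h, IL18R1 had rank 3, after STAT4 and MYD88, and IL21R was the last. In WT at 24 h, IL18R1 and IL18RAP had ranks 5 and 6, and IL21R was again the last. In both ΔOGT-ISS libraries IL18R1 and IL18RAP were the last 2. The top neighbours STAT4 and MYD88 in ΔOGT-ISS at 24 h (30.4 and 31.8 FPKM) and IL12RB2 and IL18RAP in WT at 48 h (10.8 and 9.90) lay close together, and no replicate gives their spread.

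**Figure D4:**
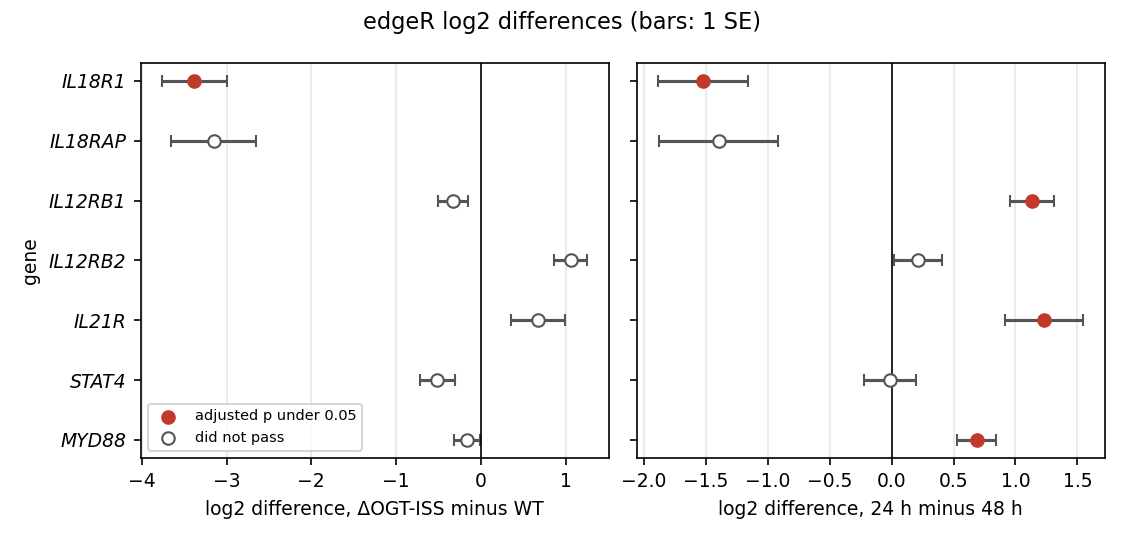
edgeR log2 difference of each gene between the lines (left) and between the IL-2 times (right), with bars of 1 SE; red points passed an adjusted p of 0.05. Between the lines IL18R1 passed, at -3.38; between the times IL12RB1, IL21R and MYD88 passed as higher and IL18R1 as lower at 24 h.

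Between the IL-2 times 4 of the 7 genes passed, 3 higher and 1 lower at 24 h, where 25.9% of all genes tested did (15.0% higher, 10.9% lower). IL12RB1 rose by 1.13 on the log2 scale (SE 0.18, edgeR adjusted p = 0.00383), IL21R by 1.23 (SE 0.32, 0.0258) and MYD88 by 0.69 (SE 0.16, 0.0168). For all 3 the ratio was above 1 in each line: the 24 h to 48 h ratios in WT and ΔOGT-ISS were 2.14 and 2.24 for IL12RB1, 3.78 and 1.53 for IL21R, and 1.58 and 1.64 for MYD88. These 3 genes kept their sign under all 15 alternatives. The IL21R call was lost under 6 of them: limma on log2 FPKM (adjusted p = 0.0751 with a pseudocount of 1 and 0.0796 with 0.1), no line term (0.136), and without the WT 48 h (0.0953), ΔOGT-ISS 24 h (0.243) or WT 24 h library (0.209). The MYD88 call was lost without the ΔOGT-ISS 48 h (0.0815), ΔOGT-ISS 24 h (0.115) or WT 24 h library (0.194), and the IL12RB1 call without the WT 24 h library (0.100). IL18R1 fell by 1.52 (SE 0.36, edgeR adjusted p = 0.0187), with ratios of 0.577 in WT and 0.177 in ΔOGT-ISS, but its value ran from -4.23 to 0.94 when each library was left out in turn, in fits without the line term. It was 0.94 without the WT 48 h library and 0.06 without the ΔOGT-ISS 24 h library. IL18RAP, at -1.40 (SE 0.48, edgeR adjusted p = 0.0672), and IL12RB2 and STAT4, at 0.21 and -0.01, did not pass. The median over all genes tested was 0.07 and that of the 7 genes 0.21. Both 24 h libraries are the deeper ones. With them thinned to the lowest total, the time values were 1.06 for IL12RB1, 1.18 for IL21R, 0.64 for MYD88 and -1.54 for IL18R1, and all 4 passed, as they did in 10 of 10 further draws.

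The courses of the other genes were shared with different partners. The nearest genes were USB1 (0.0296 log2 units) and ZNF414 (0.0302) to IL12RB1, IFT172 (0.0475) and the pseudogene LRRC37A9P (0.0756) to IL12RB2, and ZNF70 (0.0519) and LY6E (0.0608) to IL21R. For STAT4 they were PRDM8 (0.0191) and ADPGK (0.0657), and for MYD88 CENPA (0.0187) and IDH3G (0.0247). With 4 libraries many genes share such a course, and the measure is a description.

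In the list of IL-18 and MyD88 signalling, 0 of 22 tested genes passed between the lines (median -0.04). Over all genes tested, the shares to set beside this list and those below were 0.463% between the lines and 25.9% between the times. With so low a share between the lines, 0 of 22 tells little about the list. Between the times 5 of the 22 passed as higher and 4 as lower at 24 h (median 0.09). Among those 9, NFKBIA, the inhibitor of NF-κB, fell by 2.22 at 24 h (SE 0.22, edgeR adjusted p = 8.17e-04) and NFKB1 by 0.97. SIGIRR, a member of the IL-1 receptor family, and the kinase IRAK1 rose by 1.70 and 1.07. IL1RAP, the accessory chain of the IL-1 receptor, had 13 and 10 counts at 48 h and 72 and 3 at 24 h (WT first; log2 line difference -2.50, SE 1.18, edgeR adjusted p = 0.616). IL18 itself was at most 12 counts in any library. Of 12 other receptors that use MYD88, 4 were tested and 0 passed in either comparison. Those with the largest line values were IL1R1, given above, and TLR6 at -1.42 (edgeR adjusted p = 0.459), with at most 71 counts, and TLR9 had 0 counts in all 4 libraries.

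Of the IL-12 family and STAT4 list 8 of 13 genes were tested, and 0 passed between the lines (median -0.16). IL27RA, the IL-27 receptor, stood at -1.10 (SE 0.20, edgeR adjusted p = 0.0764), with 18.5 and 9.47 CPM at 48 h and 55.4 and 24.1 at 24 h, WT first. Between the times IL27RA and TYK2 rose by 1.47 and 0.88 and IL6ST and IL23A had log2 values of -0.84 and -2.41, all 4 past the test. SOCS3, a feedback inhibitor, had 2 and 29 counts in WT and 0 in both ΔOGT-ISS libraries and was not tested.

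Of the IL-21 and common gamma chain list 13 of 15 were tested. One fell between the lines, the IL-4 receptor gene IL4R, by 1.31 (SE 0.19, edgeR adjusted p = 0.0431). It had 76.5 and 38.5 CPM at 48 h and 148 and 48.6 CPM at 24 h, WT first. The list's median was -0.22, with 11 of 13 values negative. Between the times 7 rose and 1 fell, among them IL9R, the IL-9 receptor, by 3.27 (edgeR adjusted p = 8.71e-04), CISH, a STAT5-induced inhibitor, by 1.60, IL2RB by 0.98 and STAT5A by 0.78.

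Of the 18 listed genes known to respond to IL-12 and IL-18 in NK cells 16 were tested. Between the lines 13 had negative line values (median -0.50), and 1 passed: FURIN, a proprotein convertase, fell by 1.73 (SE 0.22, edgeR adjusted p = 0.0266). FURIN had 41.0 and 10.3 CPM at 48 h and 31.2 and 11.0 CPM at 24 h, WT first. IFNG had 74.5 and 62.8 CPM at 48 h and 27.1 and 15.6 at 24 h, WT first (log2 -0.52, SE 0.19, edgeR adjusted p = 0.447). TBX21, the gene of the transcription factor T-bet, stood at 0.00 (SE 0.18). Between the times TNF rose by 1.89 while IFNG fell by 1.73, CCL4 by 1.57 and IL10 by 1.30. Of 6 tested IL-21 responsive genes, IRF4 rose by 1.19 between the lines and GZMA fell by 1.26 (edgeR adjusted p = 0.0313 and 0.0479), with a list median of -0.80. Between the times PRDM1 and BCL6, a pair of transcriptional repressors, fell by 0.92 and 1.43 and GZMA by 0.77, and IRF4 rose by 0.80.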

How the data were processed

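Per the labels' protocols, RiboCop removed ribosomal RNA and the 4 NK-92 libraries were made with CORALL RNA-seq V2. HISAT2 2.2.0, SAMtools 1.15.1, featureCounts 2.0.1 and hg38 are named, with no roles, per the submitters' processing notes. The authors deposited raw counts per Ensembl gene, and FPKM values that equal the count over a transcript length and the sum of counts (largest relative deviation 1.9e-07). For annotation, strand setting and duplicates, nothing is given in the sources used here.

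The counts were fitted in edgeR 4.0.16 (R 4.3.3): TMM, filterByExpr with a minimum count of 10 (17492 genes), a line term plus a time term, quasi-likelihood F tests, two-sided, Benjamini-Hochberg over all genes, threshold 0.05. This leaves 1 residual degree of freedom. SE is the log2 difference over the square root of F. Nothing says the libraries are separate cultures, so p-values reflect only how these libraries vary, possibly for technical reasons. Replicate 1 of a line is its 48 h library and replicate 2 its 24 h library. Counting intervals are exact conditional binomial, 95% (SciPy 1.17.1). DESeq2 1.42.0 and limma 3.58.1, on log2(FPKM + 1) and log2(FPKM + 0.1), were alternatives. The fit was tested on simulated data.

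Members and lists were chosen with earlier results of these data known. Named were the 7 members, 14 partner genes, each member's 2 nearest genes and, per list, at most 4 genes past the test by adjusted p (the 2 largest line values where none passed). Some genes of the rule and the marker lists are not reported here. IL4R, FURIN, SOCS3, MFSD9, MAST3, the markers and the transcripts inside IL18RAP were named after their values were seen. Positions are from GENCODE release 29 on GRCh38.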

Additional observations from a re-analysis of the deposited data

Results flagged for a closer look

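The time ratio (24 h over 48 h) lay on opposite sides of 1 in the 2 lines for 2 genes, with counting intervals that exclude 1 in both. IL12RB2 had a ratio of 1.46 (1.34 to 1.60) in WT and 0.928 (0.878 to 0.981) in ΔOGT-ISS. STAT4 had 1.30 (1.21 to 1.39) in WT and 0.755 (0.703 to 0.812) in ΔOGT-ISS. Each ratio rests on 2 single libraries, and the difference between the lines was not tested.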

How the results depend on the processing

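With 1 residual degree of freedom the calls depended on the setting. Between the lines edgeR called 81 genes (1 of the 7), against 154 (3) with DESeq2 size factors, 96 (2) with upper-quartile factors, 303 (3) with the DESeq2 test, 546 (3) without a count filter, 185 (2) after thinning both 24 h libraries to the lowest total, and 0 (0) with limma on FPKM at either pseudocount or without the time term (1618, 1543 and 242 at an unadjusted p of 0.05). Leaving out 1 library, also without that term, gave 0 to 16 (0 of the 7). The 10 further draws of the thinning, chosen after seeing the data, called 58 to 431, and IL18R1 in 10, IL18RAP and IL12RB2 in 8. IL18R1 kept its sign but did not pass with limma (-2.55 and -3.25), without the time term (-3.01) or without 1 library (-4.73 to -2.27). IL18RAP passed at -3.16, -3.12, -3.20, -3.20 and -3.06 with DESeq2 size factors, upper-quartile factors, the DESeq2 test, no filter and thinning. IL12RB2 passed at 1.05, 1.05 and 1.02 with DESeq2 size factors, the DESeq2 test and no filter. Between the times 4535 genes (4 of the 7) became 1098 to 3657 (1 to 2) without 1 library. Of the 7, 2 passed with limma at the smaller pseudocount and 2 without the line term, and 5 with no filter, where 4897 were called, 3714 higher. Without 1 library the IL18R1 time value ran from -4.23 to 0.94, and was 0.06 without ΔOGT-ISS replicate 2. The causes were not tested.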

Other observations

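Low counts were not spread evenly at 48 h. There, 3813 genes had 0 counts in WT and at least 5 in ΔOGT-ISS, and 1131 the reverse, although the totals are alike. At 24 h the numbers were 282 and 429. Genes with 0 counts in WT at 48 h include IL18 with 0 and 8 (WT first), and CD8B and CD5 with 0 and 14 each. SLC9A4, beside IL18RAP, had 1 and 23 counts at 48 h.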
